A study of Mus musculus with 12 samples.

Results

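The 36 genes described here report on protein folding in the endoplasmic reticulum (ER) and on the response of cells to a shortage of amino acids. They were taken as a list of symbols, older synonyms allowed, and each gene was read from its brightest probe by mean processed signal over all arrays. Of 24467 genes with a named probe, 14740 were tested, 35 of the 36 among them. A gene was tested where its probe was marked well above background on 3 or more of the 6 arrays in tumor or in normal. The list falls into 15 ER chaperones and folding enzymes, 4 genes of ER-associated degradation, 5 sensors and transcription factors, and 12 targets of the transcription factor ATF4. The series measured messenger RNA in macrophages sorted from pancreas tumor tissue and from normal pancreas, on 12 Agilent single-colour mouse arrays, 6 per group. The comparison asks how tumor macrophages differ from those of the organ without tumor.

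The tumor group is labelled pancreas tumor macrophage and the normal group normal pancreas macrophage. Both carry the same labels otherwise: female, C57/B6 background, 4 to 5 months old, and a genotype given as not provided. The treatment text, the same for both groups, speaks of implanted tumors. The series design instead names FLT3-CRE/LSL-YFP mice (a reporter of cells descended from Flt3-expressing progenitors), KPC mice (which develop ductal adenocarcinoma of the pancreas through engineered alleles) and wild-type mice. No label says which of these gave a sample. In each group 1 sample name stands on 2 arrays, tumor replicates 4 and 6 and normal replicates 2 and 3. These were averaged, which left 5 samples per group. Whether each name is its own animal is not stated, so a p-value here reflects sample-to-sample spread, some of which may be technical. Values are log2 processed signals minus the array's 75th percentile, called relative log2 signal below. Sample values are given in the order tumor 1, 2, 3, 4 with 6, and 5, and normal 1, 2 with 3, 4, 5 and 6.

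Proteins that misfold in the ER are sensed by 3 membrane proteins: PERK (gene Eif2ak3), IRE1 (Ern1) and ATF6. IRE1 splices the Xbp1 message, and XBP1 and ATF6 then drive genes for chaperones and for ER-associated degradation. PERK phosphorylates the initiation factor eIF2, which lowers general translation while ATF4 is still made, and the kinase GCN2 does the same when amino acids run short, so ATF4 targets such as asparagine and serine synthesis enzymes follow both signals. Acinar cells of the normal pancreas secrete large amounts of digestive enzymes and are known for high expression of this machinery.

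The chaperones and the ATF4 targets answer to different regulators, and their promoters are shown for that reason. RefSeq promoter windows of build GRCm38.p6, from 250 bases before to 50 after the start, were matched for 33 of the 36 genes, all but Hyou1, Manf and Atf6. The windows were searched on both strands for the ER stress element, which is a CCAAT box, 9 arbitrary bases and CCACG, for the UPR element TGACGTGG, and for the ATF4-C/EBP composite element TGATGNAA. Windows are printed 5′ to 3′ on the strand of the gene. Below, matches to the ER stress element are in capitals for the chaperones BiP (Hspa5) and GRP94 (Hsp90b1), and matches to the composite element for 3 ATF4 targets. A match read on the opposite strand appears as its reverse complement.

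Hspa5 (chr2:34771840-34772139, plus strand): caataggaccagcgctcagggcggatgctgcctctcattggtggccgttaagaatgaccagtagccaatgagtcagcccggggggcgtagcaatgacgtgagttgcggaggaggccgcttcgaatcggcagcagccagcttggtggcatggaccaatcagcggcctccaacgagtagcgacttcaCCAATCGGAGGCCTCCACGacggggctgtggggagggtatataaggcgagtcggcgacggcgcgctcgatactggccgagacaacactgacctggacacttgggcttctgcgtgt
Hsp90b1 (chr10:86705395-86705694, minus strand): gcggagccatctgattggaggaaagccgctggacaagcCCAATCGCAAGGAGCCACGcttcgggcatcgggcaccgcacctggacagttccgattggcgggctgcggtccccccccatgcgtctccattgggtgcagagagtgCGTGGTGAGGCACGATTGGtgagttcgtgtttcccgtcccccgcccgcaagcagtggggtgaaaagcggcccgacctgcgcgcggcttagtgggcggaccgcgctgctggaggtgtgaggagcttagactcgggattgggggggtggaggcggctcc
Asns (chr6:7693160-7693459, minus strand): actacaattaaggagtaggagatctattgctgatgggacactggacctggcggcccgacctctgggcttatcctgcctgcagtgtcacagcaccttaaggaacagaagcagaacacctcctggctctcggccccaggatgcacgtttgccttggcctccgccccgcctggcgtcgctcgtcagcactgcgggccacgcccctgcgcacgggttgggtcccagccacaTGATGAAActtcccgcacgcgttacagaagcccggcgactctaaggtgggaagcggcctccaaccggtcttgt
Trib3 (chr2:152344011-152344310, minus strand): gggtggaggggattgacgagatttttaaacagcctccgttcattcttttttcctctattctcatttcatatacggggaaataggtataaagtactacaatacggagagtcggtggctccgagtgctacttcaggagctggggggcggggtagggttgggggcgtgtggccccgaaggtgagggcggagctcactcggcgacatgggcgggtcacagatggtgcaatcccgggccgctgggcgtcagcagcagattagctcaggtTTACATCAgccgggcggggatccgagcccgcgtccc
Chac1 (chr2:119350992-119351291, plus strand): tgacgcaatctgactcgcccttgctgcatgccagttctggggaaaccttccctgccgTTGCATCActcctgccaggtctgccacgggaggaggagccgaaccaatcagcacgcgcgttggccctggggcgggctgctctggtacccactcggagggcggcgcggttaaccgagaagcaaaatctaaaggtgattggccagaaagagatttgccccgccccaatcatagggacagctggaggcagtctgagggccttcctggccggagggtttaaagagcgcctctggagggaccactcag

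The ER stress element was found in 7 of 13 chaperone promoters with a window (53.8%), against 0.137% of 27025 genes. Those 7 were Hspa5, Hsp90b1, Calr, Canx, Pdia6, Dnajc3 and Creld2, and Hsp90b1 held 2 copies. In the other groups it was found in Syvn1 alone, and in 0 of 12 ATF4 targets. The composite element was found in 3 of 12 ATF4 targets (25%), Asns, Trib3 and Chac1, and in Herpud1 among the degradation genes, against 4.51% of all genes and 0 of 13 chaperones. The UPR element was found in 0 of the 33 members with a window, against 0.714% of all genes. Atf5 and Psat1 had 2 windows each, and every gene was counted once. All 13 chaperone windows held a CCAAT box, against 41.1% of all genes. These matches are descriptions of sequence, and no binding was measured.

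The labelled cell type was checked against its markers. The mean of 16 macrophage identity genes, among them Csf1r, Cd68 and Adgre1, ran from 4.79 to 5.20 in tumor samples and from 4.71 to 5.37 in normal samples, and limma called 0 of the 16, with 1 at an unadjusted p under 0.05. All 25 acinar markers tested were lower on average in tumor samples, with a median log2 difference of -6.36. Of these, 22 passed the test as lower, against 0.550% of all genes. Among the 22, Pnliprp2 and Cuzd1 were dim on every tumor array (never well above background). They passed the filter only through the normal arrays, so the filter set their direction. The mean of the 25 markers was -2.85 to 1.58 in tumor samples and 3.19 to 7.23 in normal samples. The share of all signal held by the 25 was 0.0126% to 0.282% in tumor samples and 0.693% to 4.45% in normal samples. Normal replicate 6 had the lowest acinar mean of its group, 3.19 against 5.46 or more in the other normal samples. Its array also had the highest 75th percentile of signal, 1547. The dimmest arrays were normal replicates 2 and 3, at 398.4 and 430.2. In bulk samples such as these, fewer cells of a type and less RNA per cell cannot be told apart.

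Across all 14740 genes, limma called 127 genes (0.862%) at an adjusted p under 0.05, 46 higher in tumor samples (0.312%) and 81 lower (0.550%). Of the 35 members tested, limma called 0 in either direction. At an unadjusted p under 0.05 there were 6 members (17.1%), against 1932 of all genes (13.1%), and all 6 were ATF4 targets. No member had groups that did not overlap, against 508 of all genes (3.45%). Of the 36 members, 30 were well above background on all 12 arrays. The 95% intervals of the 35 differences were between 0.91 and 4.0 log2 units wide, with a median of 1.32, so a change of 2 fold in a single member was often within the interval.

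**Figure D1:**
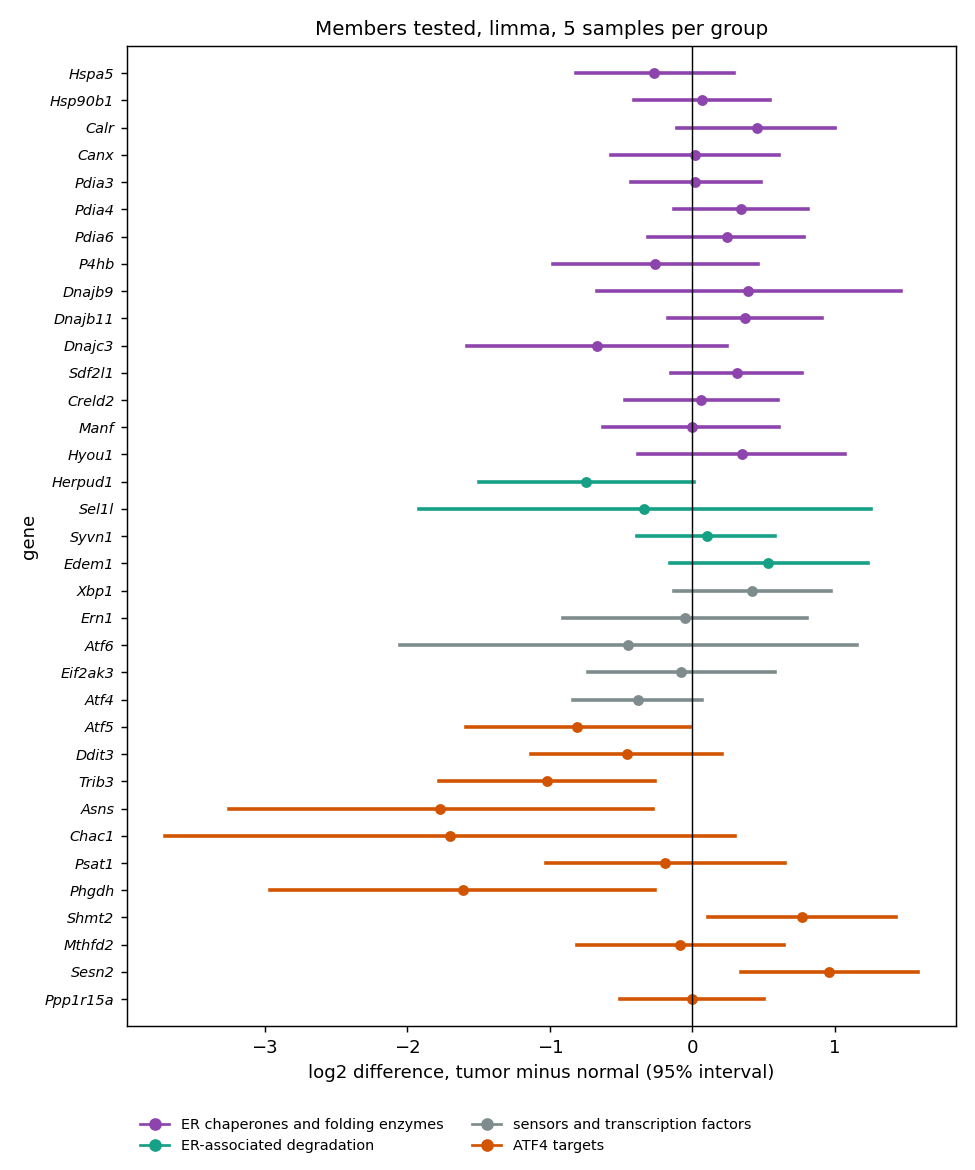
Log2 difference, tumor minus normal, of the 35 members tested, with 95% intervals from limma (5 samples per group), coloured by role. Intervals lie to the left of 0 for Atf5, Trib3, Asns and Phgdh, to the right of 0 for Shmt2 and Sesn2, and cover 0 for the other members.

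The 2 main groups of members had different centres. The chaperones had a median log2 difference of 0.07, with 11 of 15 positive, and the ATF4 targets one of -0.46, with 9 of 11 negative. These counts include values near 0, such as Canx and Pdia3 at 0.02 and Ppp1r15a at -0.00347. Without normal replicate 6, 7 of 15 chaperones were positive and 9 of 11 ATF4 targets negative. With the acinar mean as a covariate, 12 of 15 chaperones were positive and 5 of 11 ATF4 targets negative. Over all genes the median was -0.0017 and 49.9% were positive. The median difference of chaperones minus that of ATF4 targets was 0.53. It was 0.78, 0.55 and 0.54 within slides 1, 2 and 3, each of which held 2 arrays of either group. The slides are not independent. The name of normal replicates 2 and 3 stands on slides 1 and 2, and that of tumor replicates 4 and 6 on slides 2 and 3. Within slide 3, 6 of 11 ATF4 targets were negative. For the difference of medians, leaving out each sample in turn gave 0.39 to 0.70, and the lowest value came without normal replicate 6. As the members were picked with results known, no test of this contrast is given.

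Seen per sample, the contrast is the mean deviation of the 15 chaperones from their gene means minus that of the 11 ATF4 targets. It was 0.23, 0.64, 0.05, 0.39 and 0.27 in tumor samples, against -0.29, -0.30, -0.70, -0.38 and 0.10 in normal samples. All 5 tumor samples were positive and 4 normal samples negative, but normal replicate 6 lay inside the tumor range. The ATF4 targets were the wider apart of the pair. Their mean deviation was -0.05, -0.51, 0.10, -0.56 and -0.33 in tumor samples, against 0.44, 0.56, 0.64, 0.28 and -0.58 in normal samples. Apart from replicate 6, which was the lowest of all 10, each normal sample lay above every tumor sample. The chaperones gave 0.18, 0.13, 0.15, -0.17 and -0.06 in tumor samples, against 0.15, 0.26, -0.07, -0.10 and -0.48 in normal samples, and these ranges overlapped widely.

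**Figure D2:**
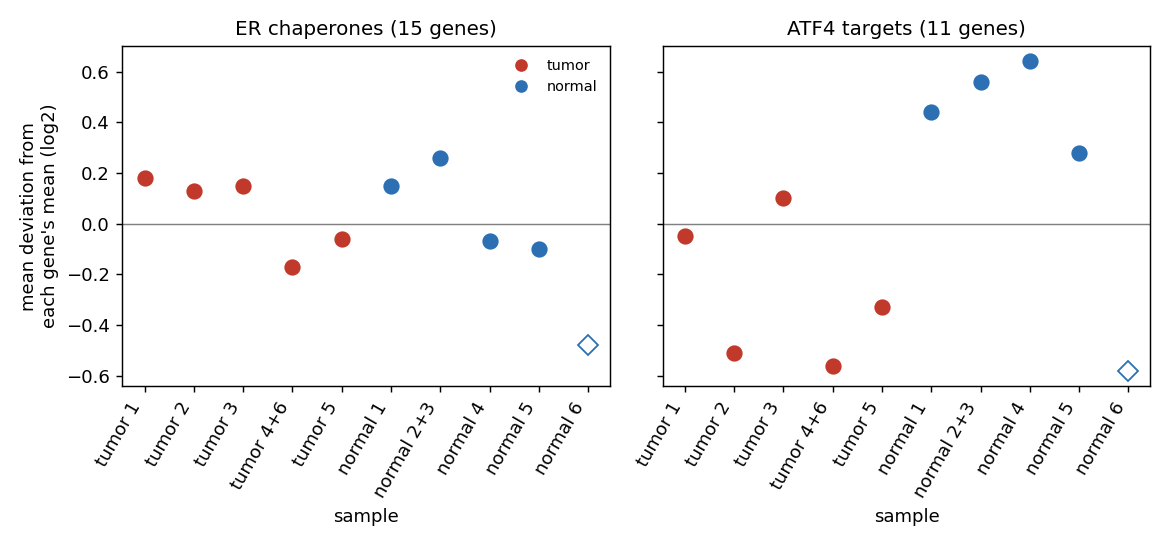
Mean deviation of each sample from the gene means, in log2 units, over 15 ER chaperones (left) and 11 ATF4 targets (right). For the ATF4 targets the tumor samples sit between -0.56 and 0.10 and 4 normal samples between 0.28 and 0.64, while normal replicate 6 (open diamond) sits at -0.58.

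Among the sensors, Eif2ak3, Ern1 and Atf6 had differences of -0.08, -0.05 and -0.45, with adjusted p of 0.934, 0.966 and 0.824 in limma. The probe of Atf6 was well above background on only 3 tumor and 3 normal arrays, and its 95% interval ran from -2.05 to 1.15. Xbp1, whose spliced message encodes the main factor for secretory capacity, had relative log2 signals of 3.06, 3.12, 3.08, 2.33 and 2.73 in tumor samples, against 2.45, 2.74, 2.47, 2.67 and 1.89 in normal samples. The first 3 tumor samples were above all normal samples and the other tumor samples overlapped them. Its difference was 0.42 ± 0.25 (SE; 95% interval -0.13 to 0.97; limma adjusted p = 0.508), and the array does not separate spliced from unspliced message.

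Atf4 itself had relative log2 signals of 5.66, 5.84, 5.11, 5.71 and 5.70 in tumor samples, against 6.15, 6.09, 5.83, 5.90 and 5.98 in normal samples. The groups touched only where tumor 2 lay just above normal 4. The difference was -0.38 ± 0.21 (SE; 95% interval -0.84 to 0.07; limma adjusted p = 0.470), and a further Atf4 probe gave -0.40. ATF4 is controlled largely at translation, so message level alone does not report its activity.

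The ER chaperones and folding enzymes showed small differences. They ranged from -0.67 for Dnajc3 to 0.45 for Calr, the lowest adjusted p was 0.486, and 0 of 15 had an unadjusted p under 0.05. For 11 of the 15, the 95% interval lay wholly between -1 and 1, that is, within a change of 2 fold either way. Hspa5, which encodes BiP, the Hsp70 of the ER and the classical readout of ER stress, had relative log2 signals of 4.87, 4.88, 4.91, 4.60 and 5.02 in tumor samples. In normal samples it had 5.15, 5.74, 5.09, 5.18 and 4.44. The tumor samples lay close together (SD 0.16), below 4 normal samples and above replicate 6. Its difference was -0.27 ± 0.25 (SE; 95% interval -0.82 to 0.29; limma adjusted p = 0.691), read from a probe at chr2:34631913-34631972 of mm9, the build of the array annotation, which gives no exon or intron.

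Calr encodes calreticulin, the soluble lectin chaperone of newly made glycoproteins. It had 5.87, 5.63, 5.75, 5.95 and 5.64 in tumor samples, against 5.94, 5.57, 5.18, 5.20 and 4.71 in normal samples. Normal 1 lay within the tumor range and the other normal samples lay below it. Its membrane-bound partner Canx averaged 1.26 ± 0.49 in tumor samples and 1.24 ± 0.22 in normal samples (SD, n = 5 each). Hsp90b1, the Hsp90 of the ER, averaged 2.89 ± 0.25 in tumor samples and 2.83 ± 0.24 in normal samples (SD, n = 5 each). Neither pair of means differed by more than its spread.

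The protein disulfide isomerases, which form and reshuffle disulfide bonds, were split. Pdia3, Pdia4 and Pdia6 had differences of 0.02, 0.34 and 0.24, and P4hb, the founding member of the family, -0.26. Pdia4 averaged 2.21 ± 0.21 in tumor samples and 1.87 ± 0.27 in normal samples (SD, n = 5 each), with an adjusted p of 0.535 in limma. Among the J-domain cochaperones that load clients onto BiP, Dnajb9 and Dnajb11 had differences of 0.39 and 0.37. Dnajc3, which encodes p58IPK, had -0.65, -0.70, -1.21, -2.65 and -1.82 in tumor samples, against -0.95, -0.39, -0.06, -1.25 and -1.01 in normal samples. Tumor 4 with 6 and tumor 5 lay below all normal samples. Its difference was -0.67 ± 0.41 (SE; 95% interval -1.58 to 0.24; limma adjusted p = 0.525).

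The remaining chaperone members are small or auxiliary factors. Sdf2l1, a partner of the J-domain proteins, averaged 3.66 ± 0.21 in tumor samples and 3.35 ± 0.25 in normal samples (SD, n = 5 each). Hyou1, the exchange factor for BiP, averaged -1.56 ± 0.22 in tumor samples and -1.91 ± 0.70 in normal samples (SD, n = 5 each). Creld2 and Manf, secreted ER stress-induced proteins, had differences of 0.06 and -0.01. Adjusted p in limma was 0.564 for Sdf2l1, 0.690 for Hyou1, 0.933 for Creld2 and 0.995 for Manf.

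Much of the spread of the chaperones was in the normal group. The median SD over chaperones was 0.22 in tumor samples and 0.43 in normal samples, and 10 of the 15 had the larger SD in normal samples. Normal replicate 6 was the lowest normal sample for 11 of the 15 and the lowest of all samples for 8, and the averaged normal replicates 2 and 3 were the highest of all samples for 5. The array of replicate 6 had the highest 75th percentile of signal (1547), and those of replicates 2 and 3 the lowest (398.4 and 430.2). That percentile is subtracted from every value, and its part in this pattern was not tested. Without normal replicate 6 the chaperone median was -0.026, and 7 of 15 differences were positive.

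**Figure D3:**
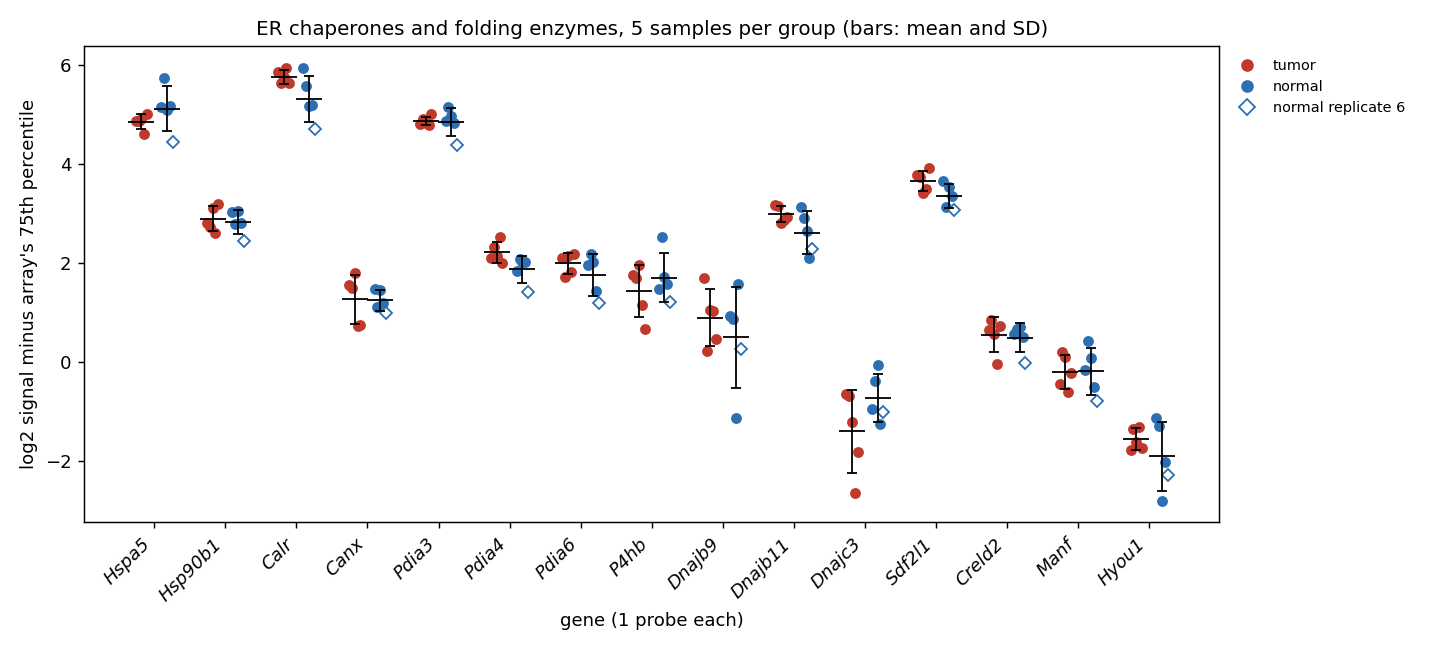
Relative log2 signal (log2 signal minus the array's 75th percentile) of the 15 ER chaperones and folding enzymes in 5 tumor and 5 normal samples, with the mean and SD as bars. The groups overlap for every gene, and normal replicate 6 (open diamond) is the lowest normal sample for 11 of 15 genes.

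The 4 genes of ER-associated degradation, which returns misfolded proteins to the cytosol for destruction, had a median difference of -0.12. Herpud1, a membrane scaffold of the degradation complex with the composite element in its promoter window, had 1.14, -0.38, -0.05, -0.26 and 0.84 in tumor samples, against 1.14, 1.05, 1.28, 0.39 and 1.18 in normal samples. Tumor 2, 3 and 4 with 6 lay below all normal samples, and tumor 1 and 5 lay within their range. Its difference was -0.75 ± 0.34 (SE; 95% interval -1.50 to 0.01; limma adjusted p = 0.387). Edem1, a lectin that picks out misfolded glycoproteins, averaged -0.43 ± 0.25 in tumor samples and -0.96 ± 0.65 in normal samples (SD, n = 5 each), and its probe was above background on 4 of 6 normal arrays. The ubiquitin ligase Syvn1 and its adaptor Sel1l had differences of 0.10 and -0.34. A second probe, which the file names D530017H19Rik and the gene table lists as a synonym of Syvn1, gave -0.67, but it was above background on only 2 tumor and 3 normal arrays, against 6 and 6 for the probe used.

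The ATF4 targets held the largest differences in size among the members, in both directions. Of 11 tested, 4 had an unadjusted p under 0.05 with a negative difference (Asns, Phgdh, Trib3 and Atf5) and 2 with a positive one (Sesn2 and Shmt2). Of all genes, 6.45% had a negative and 6.66% a positive difference at that level. Asns, the asparagine synthetase and a standard readout of amino acid shortage, had -0.06, 0.69, 0.62, -0.65 and -0.57 in tumor samples, against 1.03, 3.45, 2.39, 2.57 and -0.58 in normal samples. Of the normal samples, 4 lay above all tumor samples and normal replicate 6 lay among the lowest tumor samples. The difference was -1.77 ± 0.67 (SE; 95% interval -3.25 to -0.28; limma adjusted p = 0.301), a 3.40-fold gap between the means, from a probe at chr6:7625171-7625228 of mm9.

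Phgdh, which encodes the entry enzyme of serine synthesis, had 0.05, 0.39, 1.65, -0.50 and 0.47 in tumor samples, against 1.86, 3.68, 2.36, 2.16 and 0.03 in normal samples. The same 4 normal samples lay above all tumor samples. Its difference was -1.61 ± 0.61 (SE; 95% interval -2.96 to -0.26; limma adjusted p = 0.300), and its other probes gave -1.28 and -1.01. Psat1, the next enzyme of that pathway, averaged 1.03 ± 0.53 in tumor samples and 1.21 ± 0.71 in normal samples (SD, n = 5 each), with an adjusted p of 0.865. The last enzyme, Psph, failed the filter: its brightest probe was well above background on 1 tumor and 1 normal array, and it was not tested. A second Psph probe, dimmer by mean signal and so not taken by the rule, was above background on 3 tumor and 0 normal arrays. The Psat1 difference was -0.19 (95% interval -1.03 to 0.65). A second Psat1 probe, above background on 6 tumor and 6 normal arrays, gave -0.57.

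Trib3, a pseudokinase that restrains ATF4, had -1.96, -1.72, -1.37, -1.56 and -1.91 in tumor samples, against -0.47, -0.11, -0.82, -0.12 and -1.89 in normal samples. Here too the normal samples other than replicate 6 lay above all tumor samples. The difference was -1.02 ± 0.34 (SE; 95% interval -1.78 to -0.26; limma adjusted p = 0.232), from a probe at chr2:152163161-152163220 of mm9. Without normal replicate 6 it was -1.32 and passed the test (adjusted p = 0.0353), and over leaving out each sample in turn the adjusted p ran from 0.0353 to 0.425. Atf5, a transcription factor of the ATF4 family, had 3.62, 3.62, 3.84, 3.29 and 3.14 in tumor samples, against 4.39, 5.38, 4.38, 4.15 and 3.23 in normal samples. Its difference was -0.81 ± 0.36 (SE; 95% interval -1.59 to -0.02; limma adjusted p = 0.367). Replicate 6 was again the normal sample within the tumor range.

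Sesn2, whose protein sestrin 2 restrains mTORC1 when leucine is short, stood on the other side. It had 3.54, 3.44, 2.78, 3.27 and 3.68 in tumor samples, against 2.81, 1.61, 2.31, 2.64 and 2.53 in normal samples. Tumor 3 lay just below normal 1, and the other tumor samples lay above all normal samples. The difference was 0.96 ± 0.28 (SE; 95% interval 0.34 to 1.58; limma adjusted p = 0.173), from a probe at chr4:132048858-132048917 of mm9. With the 12 arrays counted as separate samples, which repeats 2 names, it passed (adjusted p = 0.0461). Shmt2, the mitochondrial enzyme that splits serine into glycine and a one-carbon unit, had 1.51, 1.09, 1.69, 1.70 and 1.16 in tumor samples, against 1.48, 0.38, 0.89, 0.60 and -0.05 in normal samples. Normal 1 lay within the tumor range, and the other normal samples lay below it. Its difference was 0.77 ± 0.30 (SE; 95% interval 0.11 to 1.43; limma adjusted p = 0.305), while Mthfd2, which acts next in the mitochondrial one-carbon pathway, had -0.09 (95% interval -0.81 to 0.64).

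The stress-effector targets were closer between groups, or too dim to place. Ddit3, which encodes the pro-apoptotic factor CHOP, had -0.26, -0.96, -1.15, -1.16 and -0.45 in tumor samples, against -0.67, -0.11, 0.24, -1.03 and -0.12 in normal samples. These ranges overlapped, and the difference was -0.46 ± 0.30 (SE; 95% interval -1.13 to 0.21; limma adjusted p = 0.550). Ppp1r15a encodes GADD34, which reverses eIF2 phosphorylation. It averaged 4.15 ± 0.28 in both groups (SD, n = 5 each), with a 95% interval of the difference from -0.51 to 0.50. Chac1, an enzyme that degrades glutathione, had a difference of -1.70 ± 0.91 (SE; 95% interval -3.70 to 0.30; limma adjusted p = 0.464), but was well above background on only 3 tumor and 4 normal arrays. Its values spread widely within each group, from -5.17 to -1.19 in tumor samples and from -3.71 to 0.64 in normal samples.

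**Figure D4:**
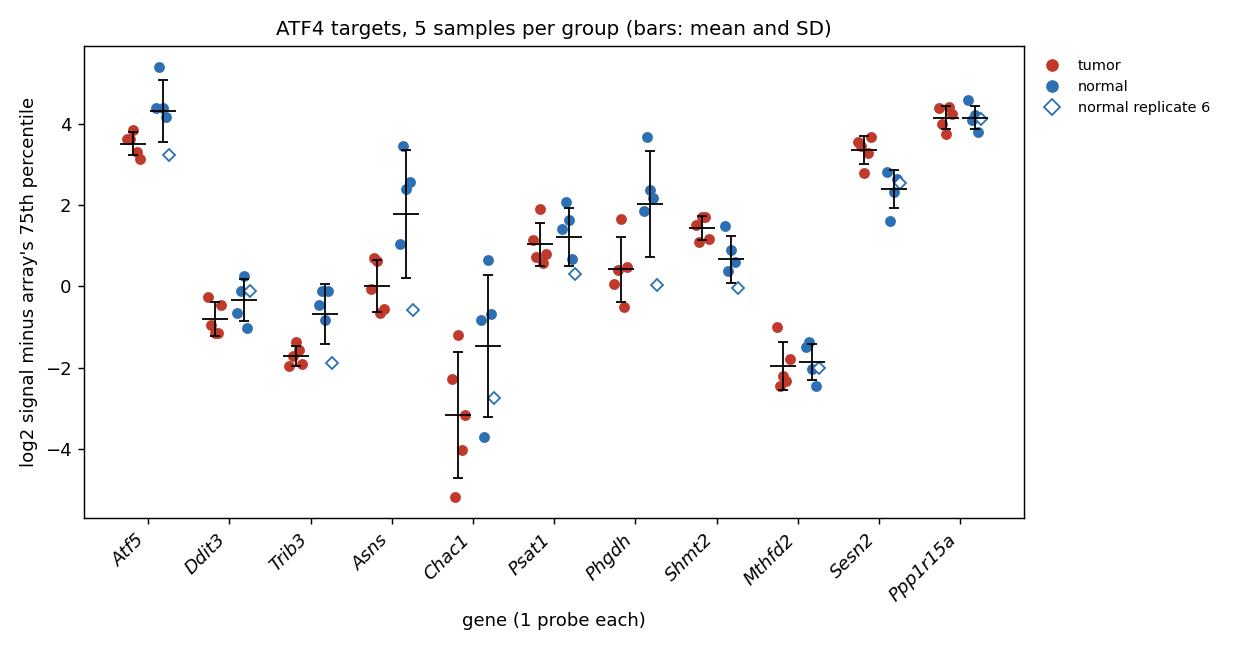
Relative log2 signal (log2 signal minus the array's 75th percentile) of the 11 ATF4 targets tested in 5 tumor and 5 normal samples, with the mean and SD as bars. For Atf5, Trib3, Asns and Phgdh all normal samples except replicate 6 (open diamond) lie above every tumor sample, while for Sesn2 and Shmt2 most tumor samples lie above the normal ones.

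Within the normal group, Asns followed the order of the acinar transcripts, and Phgdh, Trib3 and Atf5 shared part of it. Among the normal samples the order of Asns from high to low (2 with 3, 5, 4, 1, 6) was the order of the acinar mean (7.23, 6.38, 6.03, 5.46 and 3.19). The order was 2 with 3, 4, 5, 1, 6 for Phgdh and 2 with 3, 5, 1, 4, 6 for Trib3. For Atf5 it was 2 with 3, 1, 4, 5, 6. Asns, Phgdh, Trib3 and Atf5 each had their highest normal value in 2 with 3 and their lowest in 6. The same ends were those of array brightness, with 75th percentiles of 398.4 and 430.2 for replicates 2 and 3 and 1547 for replicate 6. The part of brightness was not tested. Among the tumor samples, with acinar means of -2.85 to 1.58, Asns kept no such order, since the sample with the highest acinar mean had -0.57 and the one with the lowest -0.06. With the acinar mean as a covariate, the difference of Asns was 0.089, that of Phgdh 0.52 and that of Trib3 0.26, so their sign turned. That of Atf5 was -0.031 and kept its sign, and those of Sesn2 and Shmt2 were 0.57 and 1.1. In that fit the ATF4 target median was 0.089, the chaperone median 0.50, and 0 of all genes were called, with 434 at an unadjusted p under 0.05. The acinar means of the groups did not overlap, so acinar level and group cannot be told apart in these samples.

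**Figure D5:**
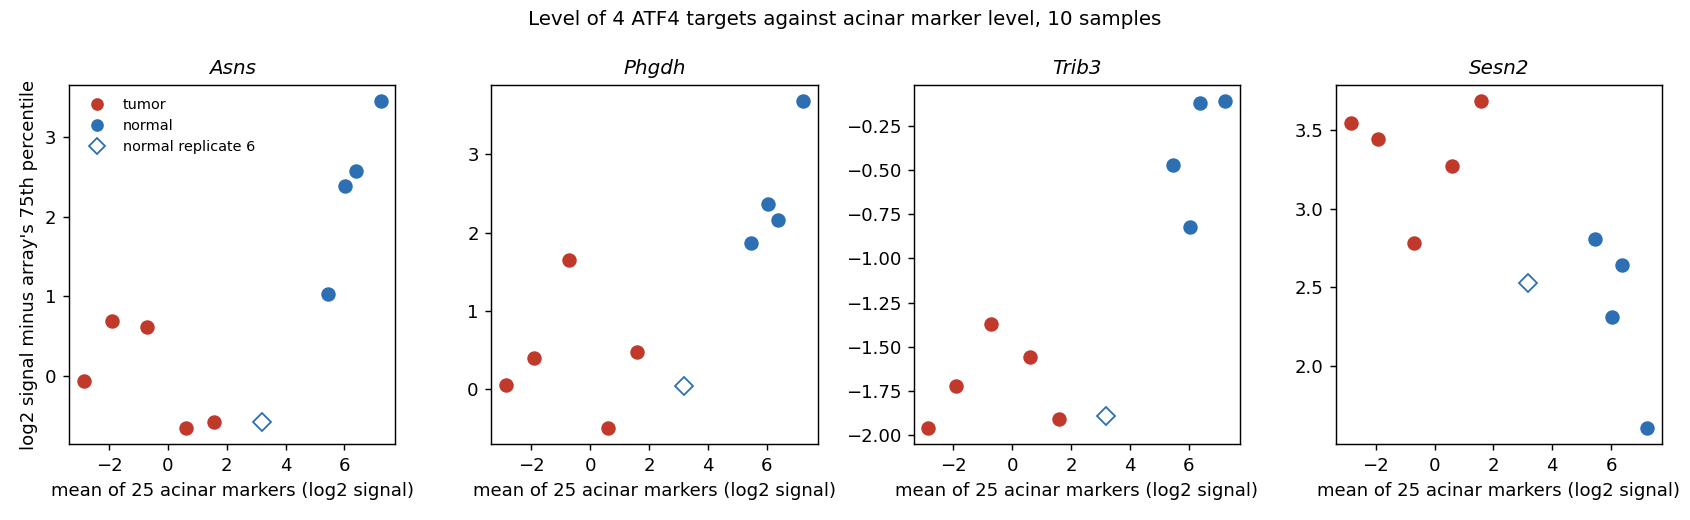
Relative log2 signal of Asns, Phgdh, Trib3 and Sesn2 (y) against the mean of 25 acinar markers (x, relative log2 signal) in 5 tumor and 5 normal samples. Tumor samples sit at acinar means of -2.85 to 1.58 and normal samples at 3.19 to 7.23. Normal replicate 6 (open diamond), with the lowest normal acinar mean and the brightest array, sits at the tumor level of Asns, Phgdh and Trib3.

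Further genes of the same pathways were read from lists of 151 genes, of which 135 were tested. Of these, limma called 0 higher and 2 lower, against 0.312% and 0.550% of all genes. At an unadjusted p under 0.05 there were 26 (19.3%), against 13.1% of all genes. Groups did not overlap for 11, against 3.45% of all genes. The 135 include Bhlha15, Cth and Mthfd1, each dim on every array of 1 group, so the filter set their direction. Among 19 other ER folding and redox genes, Pdia2, a disulfide isomerase known mainly from pancreas, fell to a mean of -0.70 ± 0.53 in tumor samples, against 4.58 ± 1.48 in normal samples (SD, n = 5 each; difference -5.28, limma adjusted p = 0.00384). Its groups did not overlap. Fkbp11, a prolyl isomerase of secretory cells, and Ero1b, an oxidase that recharges disulfide isomerases, had differences of -2.23 (adjusted p = 0.226) and -1.23 (adjusted p = 0.292). Normal replicate 6 had the lowest normal value of all 3 genes, as it had for the acinar markers. The acinar covariate left Pdia2 at -1.70 (adjusted p = 1.0), Fkbp11 at -0.21 and Ero1b at 0.13.

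The translocation, signal peptidase and glycosylation genes, which bring proteins into the ER, had positive differences in 23 of 26, with a median of 0.17 and 0 called. At an unadjusted p under 0.05 there were 3 of the 26, against 13.1% of all genes. Ssr2, of the translocon-associated complex, had 3.65, 3.65, 3.42, 3.31 and 3.46 in tumor samples, against 3.11, 2.94, 2.32, 3.0 and 2.98 in normal samples, and its groups did not overlap (adjusted p = 0.243). Prkcsh, the beta subunit of glucosidase II, had a difference of 0.50 (adjusted p = 0.307) and Sec62, a translocation factor, one of -0.57 (adjusted p = 0.278). The other 16 degradation genes had a median of 0.11, with Nploc4, Man1b1 and Edem2 at 0.46, 0.48 and -0.42. None of these differences passed the test.

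Other ER stress signalling genes had a median difference of 0.05 over 15 tested, with 0 called. Bak1, a pore-forming protein of apoptosis, had 3.99, 3.68, 3.90, 3.95 and 4.09 in tumor samples, against 3.42, 2.97, 3.18, 2.96 and 3.11 in normal samples. Those groups did not overlap, and its adjusted p was 0.102. Traf2, an adaptor of IRE1, had a difference of 0.60 (adjusted p = 0.480). Bhlha15, a transcription factor of secretory cells such as acinar cells, was dim on every tumor array (never well above background). It passed the filter only through the normal arrays, so the filter set its direction and no p-value is given. As a bound, its mean was at least 2.89-fold lower in tumor samples. The bound sets the normal mean of measured values against, per array, the higher of the probe's own signal and the lowest signal among probes above background.

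Other genes of the integrated stress response leaned the way of the ATF4 targets, with 15 of 21 negative and a median of -0.48. Over all genes 49.9% were positive. Among the 15, Cth was dim on every tumor array (never well above background), so the filter set its direction. Cbs, the first enzyme of transsulfuration, fell to -3.42 ± 1.61 in tumor samples, against 1.20 ± 1.42 in normal samples (SD, n = 5 each; difference -4.62, limma adjusted p = 0.0332). Its probe was above background on only 3 tumor arrays, its call was lost in 7 of the 10 fits that left out a sample (adjusted p up to 0.103), and its difference was 0.41 with the acinar covariate. Stc2, a secreted glycoprotein induced by ER stress, had -3.32, -2.39, -2.98, -2.46 and -2.39 in tumor samples, against -0.88, 0.05, -0.76, -1.29 and -1.96 in normal samples. Its groups did not overlap, its adjusted p was 0.0589, and its difference was -0.076 with the acinar covariate. Nupr1, a stress-induced chromatin protein first described in pancreatitis, had a difference of -1.98 (adjusted p = 0.132), and 0.10 with the acinar covariate.

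Amino acid synthesis, transport and charging gave no single direction. The 14 other serine, one-carbon and proline genes split evenly by sign (7 positive), with 0 called. Both named enzymes of proline synthesis, Aldh18a1 and Pycr1, had differences of -0.80 (adjusted p = 0.208) and -0.57 (adjusted p = 0.264), and their groups did not overlap. Mthfd1, the cytosolic one-carbon enzyme, was dim on every normal array (never well above background), which leaves a tumor mean at least 1.73-fold higher. It passed the filter only through the tumor arrays, so the filter set its direction and no p-value is given. Among 7 ATF4-linked transporters, the glycine transporter Slc6a9 had -0.91, -1.06, -1.08, -0.63 and -1.17 in tumor samples, against -0.07, 2.17, 1.37, 1.24 and -1.05 in normal samples. Its difference was -1.70 (adjusted p = 0.196), and normal replicate 6 was again the one normal sample inside the tumor range. The neutral amino acid carriers Slc1a4 and Slc1a5 had differences of -0.51 and 0.41. The 17 aminoacyl-tRNA synthetases tested, which charge tRNAs and include known ATF4 targets, had a median of 0.12 and 12 positive differences, with 0 called and 0 at an unadjusted p under 0.05. Aars, Kars and Rars had 0.31, 0.38 and 0.61.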

How the data were processed

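Sorted-macrophage RNA was extracted with an ENZO kit, amplified with Sigma WTA2 and labelled with Cy5, per the labels' protocols, so a difference here is one of amplified signal. Per the file headers, arrays were read in the red channel alone; the submitters' processing notes name Agilent Feature Extraction 11.5.1.1. Intensity values deposited for each spot include a processed signal with background already subtracted. The authors also deposited a log2 table per probe. It equalled quantile-normalized log2 processed signal (median absolute difference 0.00231, lowest correlation 0.9999), with column medians of 7.08, so its scale and direction were settled from the values, with genes not centred.

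Control spots and outlier flags (0.401% of spots) were left out, and 0 spots were saturated. Log2 processed signals were averaged over the spots of 39429 probes, and each array's 75th percentile was subtracted. Probes were named by accession (28025), symbol (3413) or synonym (295) with a RefSeq gene table (GRCm38.p6), or by the file (2036), and 5660 had no name. Tumor and normal samples were tested against each other in R 4.3.3 with limma 3.58.1, by lmFit then eBayes, with two-sided p-values adjusted by Benjamini-Hochberg across 14740 genes and called under 0.05. The median gene had 10.9 degrees of freedom and an SE of 0.36. Each array had 39.3% to 58.8% of probes well above background, the 75th percentile ran from 398.4 to 1547, and the number of arrays limits the precision.

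Replicate numbers follow the order of deposit and pair nothing. Members and lists were chosen with earlier results of these data known. Named are all members, and of each further pathway list the genes past the threshold and the 3 with the smallest p. Marker lists covered acinar, islet, plasma, B, neutrophil, dendritic, T and NK, ductal, fibroblast, endothelial and macrophage genes. Alternatives covered background correction, normalization, the authors' table, the filter, the probe of a gene, shared names, slides, the acinar mean as covariate, and each sample left out in turn.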

Additional observations from a re-analysis of the deposited data

Results flagged for a closer look

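In 70 groups of 5 values, 1 for each tested member and each group, the gap of an extreme sample to its neighbour was set against the range of the group. Chance alone passes about 1 in 20 such groups, and 4 of the 70 passed the limit of 0.71. Atf4 was lowest in tumor 3, at 5.11 against 5.66 for the next sample, a gap of 0.75 of the range. In the normal group Herpud1 was lowest in replicate 5, at 0.39 against 1.05 for the next sample, a gap of 0.74 of the range. Edem1 was lowest in the averaged replicates 2 and 3, at -2.08 against -0.97, a gap of 0.73 of the range. Those are the dimmest arrays, and 4 of 6 normal arrays measured the Edem1 probe well above background. Creld2 was lowest in replicate 6, at -0.02 against 0.50, a gap of 0.72 of the range. Replicate 6 was the lowest normal sample for 11 of 15 chaperones.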

How the results depend on the processing

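No paired analysis was possible because the labels give no replicate numbers, and numbers in order of deposit pair nothing. Each member was recomputed under 23 alternatives, 10 of which left out a sample. Of 805 such values, 723 kept their direction and their side of the threshold, 80 turned in sign and 2 passed the threshold, and 13 members never turned. The turned members mostly had small differences, so the sign of a difference near 0 is not settled. With the acinar mean as a covariate the signs turned for Asns (0.089), Phgdh (0.52), Trib3 (0.26), Psat1 (0.47), Hspa5 (0.50), Manf (0.50), Canx (-0.65), Sel1l (1.85), Cbs (0.41), Nupr1 (0.10), Slc6a9 (0.40), Slc1a4 (0.16), Bhlha15 (0.56), Ero1b (0.13), Edem2 (0.074), Nploc4 (-0.03), Traf2 (-0.96) and Aars (-0.045). In that fit the medians were 0.089 for ATF4 targets, 0.50 for chaperones and -0.87 for sensors, and 0 genes were higher and 0 lower.

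Within slide 1 the signs turned for Calr (-0.012), Dnajc3 (0.059), Eif2ak3 (0.44), Ern1 (0.62), Hsp90b1 (-0.092), Hyou1 (-0.41), Pdia3 (-0.14), Pdia6 (-0.15) and Rars (-0.05), and the sensor median was 0.44. Within slide 2 they turned for Creld2 (-0.40), Hsp90b1 (-0.10), Pdia3 (-0.27), Pdia6 (-0.054), Ppp1r15a (0.014), Slc1a5 (-0.22) and Syvn1 (-0.22), with medians of -0.75 for degradation genes and -0.48 for sensors. Within slide 3 they turned for Canx (-0.44), Dnajb9 (-0.19), Manf (0.12), Mthfd2 (0.035), Ppp1r15a (0.32), Psat1 (0.18) and Sel1l (0.16). Each slide alone, with 2 arrays per group, called 0 genes higher and 0 lower. With 12 arrays as separate samples 207 genes were higher, 222 lower and 1 member higher (Sesn2), and the signs turned for Canx (-0.045), Creld2 (-0.065), Pdia3 (-0.041) and Ppp1r15a (0.051). With slide as a block and name as a random block (correlation 0.97) Canx was -0.021. Normexp gave 94 genes higher and turned Eif2ak3 (0.028), Hyou1 (-0.039), Manf (0.038), Ppp1r15a (0.13), Rars (-0.16) and Syvn1 (-0.016). Quantile normalization turned Manf (0.0043) and Ppp1r15a (0.026), the authors' table likewise (0.0036 and 0.025), and the mean of all probes turned Syvn1 (-0.29). A slide alone holds fewer arrays than the main fit, and the fit of 12 counts more samples. The cause of these changes was not tested.

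Leaving out each sample in turn, the signs turned for these members, given as lowest and highest value: Atf6 -0.79 to 0.0085, Canx -0.11 to 0.15, Creld2 -0.061 to 0.21, Dnajb9 -0.013 to 0.66, Eif2ak3 -0.24 to 0.08, Ern1 -0.33 to 0.21, Hsp90b1 -0.026 to 0.14, Manf -0.16 to 0.15, Mthfd2 -0.32 to 0.044, Pdia3 -0.089 to 0.10, Ppp1r15a -0.092 to 0.10, Psat1 -0.42 to 0.023, Sel1l -0.74 to 0.24 and Syvn1 -0.0028 to 0.16. Genes called higher numbered 20 (without normal 5) to 75 (without normal 6), and genes called lower 32 (without normal 5) to 117. Members called lower numbered 0 to 1, the 1 being Trib3 without normal 6. The spread of the normal group and the probes near background (Atf6, Sel1l, Chac1) limit what 5 samples can show.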

Other observations

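Markers of the other cells that a sort from pancreas could hold were read as means per sample, and their part in the results above was not tested. Islet markers, 6 tested, averaged -1.17 to -0.68 in tumor samples and -0.18 to 3.31 in normal samples, the highest in the averaged normal replicates 2 and 3. The neutrophil list was at -2.54 to 0.18 in tumor samples and -3.45 to -1.76 in normal samples, with 8 of 9 differences positive and 1 called higher. Dendritic cell markers ran from 0.59 to 2.59 in tumor samples and from 0.29 to 1.50 in normal samples, with 0 of 8 called. Plasma cells are known for high expression of ER chaperones, and their 10 markers averaged -0.99 to -0.43 in tumor samples and -0.87 to -0.44 in normal samples. Of all genes, 13.1% had an unadjusted p under 0.05. At that level there were 4 of 6 islet genes, all lower in tumor samples. There were also 4 of 9 neutrophil and 3 of 8 dendritic cell genes, all higher, though S100a8 was dim on every normal array. Of the 10 plasma cell genes 3 passed that level, 2 higher and 1 lower.

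The other lists overlapped between groups and had 0 genes called by limma in either direction. B cell markers averaged -2.02 to -0.56 in tumor samples and -1.84 to -0.56 in normal samples, and T and NK cell markers -2.59 to -1.31 in tumor samples and -2.23 to -0.84 in normal samples. Ductal and tumor epithelial markers averaged -0.41 to 1.04 in tumor samples and -0.31 to 2.10 in normal samples, with a median difference of -0.44. Fibroblast markers averaged 1.01 to 2.32 in tumor samples and 1.36 to 3.36 in normal samples. Endothelial markers averaged -1.81 to -0.37 in tumor samples and -1.46 to 1.29 in normal samples. Of these, 3 of 8 had an unadjusted p under 0.05, against 13.1% of all genes, all with negative differences. The epithelial, fibroblast and endothelial means were each highest in normal replicates 2 and 3, the dimmest arrays.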
